A study of Mus musculus with 13 samples.

Results

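The 43 genes described here encode chromatin regulators, cohesin subunits and splicing factors known from human leukaemia, and they were followed through whole-genome variant calls of mouse leukaemias driven by N-Myc. They form 8 genes of DNA methylation and hydroxymethylation, 8 of the Polycomb group and its deubiquitinases, 7 of histone acetylation and deacetylation, 5 of histone demethylation and the trithorax group, 2 chromatin remodellers, 5 of cohesin and insulation and 8 of RNA splicing and ribonucleoprotein. A variant belonged to a member when the gene name given by the deposited annotation was that member, and copy number calls were set against the member's span. The 43 members stand among 21631 protein-coding genes on chromosomes 1 to 19 and X of the RefSeq table for GRCm38.p6.

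All libraries were made from GFP+ bone marrow cells of C57BL/6 mice with a stated stage of 8 to 10 weeks, with 1 library per group. B-ALL cells were B220+, T-ALL cells CD3+, AML cells Mac1+Gr1+ and AUL cells negative for B220, CD3, Mac1 and Gr1, and 2000000 cells were taken for each of these. The mixed phenotype leukaemia gave a myeloid fraction (M-MPAL, Mac1/Gr1+ B220- CD3/4/8-) and a T-lineage fraction (T-MPAL, Mac1/Gr1- B220- CD3/4/8+) of 1000000 cells each, and 1000000 GFP+ cells came from empty control mice. The leukaemias arose with retroviral N-Myc, a Myc family transcription factor. Whether the MPAL fractions came from the same mouse, and how many mice stand behind a library, is not given in the labels. DNA variants measure no surface marker, so the sorted cell types could not be checked. The labels name no matched normal DNA, so that inherited and acquired variants cannot be told apart. The control shares its written protocol with the MPAL fractions alone. Differences between groups therefore have no replicate check, and intervals below cover counting error only, because sequenced reads that carry no molecular identifier can copy the same molecule.

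As background, DNA methyltransferases and histone-modifying complexes set which genes a blood progenitor can read, and TET enzymes and histone demethylases remove such marks. Cohesin is a ring that holds DNA in loops whose ends CTCF fixes, and the spliceosome recognises the ends of introns. In human myeloid neoplasms and acute leukaemias these groups are frequent targets of loss-of-function and missense mutations, and some (DNMT3A, SRSF2, SF3B1, U2AF1, IDH1, IDH2, NPM1) carry well-known hotspot mutations.

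Coding change in the members was rare. Of 392 distinct variants that named a member, 39 were single nucleotide variants (SNVs) in 22 members and 353 were insertions or deletions (INDELs) in 35 members. Of the SNVs 2 were exonic and 37 intronic, and of the INDELs 7 lay in 3′ untranslated regions and 346 in introns. No splicing variant, no 5′ UTR variant and no exonic INDEL was called in a member. A call of some kind was made in 35 of 43 members (81.4%), against a background of 60.9% of all protein-coding genes, and the members are long, with a median span of 46.4 kb against 17.3 kb. The tables list calls only, so a library without a call has no depth on record at that site, and the median depth over the members' own calls was 16 to 19 reads per library.

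Both exonic SNVs were private, which here means covered by 10 or more reads in the library that carries it and not called, whatever the depth, in any of the 6 others. AUL carried the missense change P1115H (C3344A of the transcript, exon 24) in Dhx38, a helicase of the spliceosome, at position 109552108 of chromosome 8. The alternative base stood on 25 of 35 reads, a share of 71.4% (95% Clopper-Pearson interval 53.7 to 85.4%), with 13 forward and 12 reverse reads and a quality score of 221. T-MPAL carried the synonymous change P612P (C1836T, exon 5) in Chd8, a chromatin remodeller of the CHD family, at position 52227567 of chromosome 14, on 17 of 28 reads (60.7%, 40.6 to 78.5%). The share of Dhx38 lay above an even split of reads and that of Chd8 did not differ from one within its interval. Members with a private exonic or splicing call were thus 2 of 43, or 4.65%, where 1.22% of all protein-coding genes had one in any library. For protein-altering calls (missense, stop-gaining or stop-losing SNVs, exonic INDELs and splicing calls) it was 1 of 43 members against 0.962% of genes, and in AUL alone 1 of 43 against 0.277%. With counts of 1 and 2, these shares give no ground for a difference. No exonic or splicing call in a member was made in the other 5 libraries, at any depth. By library, the share of all genes with a private exonic or splicing call was 0.337% in AUL (1 of 43 members) and 0.185% in T-MPAL (1 of 43). For the libraries with 0 of 43 members it was 0.296% in T-ALL, 0.153% in M-MPAL, 0.143% in the control, 0.129% in AML and 0.106% in B-ALL.

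All private SNVs in members numbered 16. B-ALL, T-ALL and AML had 3 each, AUL 4, the empty control 2, T-MPAL 1 and M-MPAL 0, which allows up to 3.69 (95% Poisson limit). Per megabase of the members' 3.05 Mb, AUL had 1.31 (0.358 to 3.36) against 2.00 over all genes, and T-ALL 0.985 (0.203 to 2.88) against 1.13. B-ALL and AML had the same 0.985 against 0.610 and 0.631, M-MPAL 0 (up to 1.21) against 0.755, T-MPAL 0.328 (0.00831 to 1.83) against 0.548 and the control 0.657 (0.0795 to 2.37) against 0.512. In each of the 7 libraries the value over all genes lay inside the members' interval. As genes, AUL had 4 of 43 members with a private SNV against a background of 6.9%, B-ALL 3 against 2.38%, AML 3 against 2.39%, T-ALL 2 against 3.74%, the control 2 against 2.13%, T-MPAL 1 against 2.05% and M-MPAL 0 against 2.8%.

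**Figure D1:**
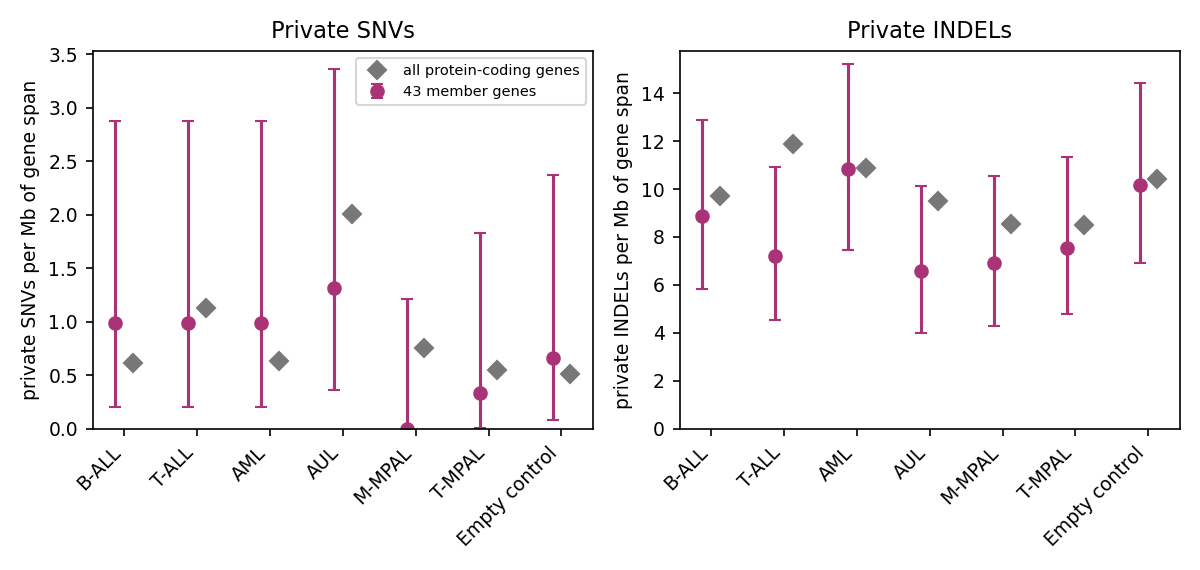
Private SNVs (left) and private INDELs (right) per megabase of gene span in each of the 7 libraries. Circles give the 43 members with exact 95% Poisson intervals and diamonds give all protein-coding genes; the diamond lies inside the interval in every library except for INDELs in T-ALL, where it lies above.

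The private SNVs fell into a well supported and a weak group. A stringent set kept only calls outside segmental duplications whose quality was 100 or more and whose alternative base had 4 or more reads and a share of 20% or more. It held 6: all 4 of AUL, 1 of AML and 1 of T-MPAL. All 6 had alternative reads on both strands. Of the 10 others, 5 had them on 1 strand only, and these 10 include all private SNVs of B-ALL, T-ALL and the control. Members with a stringent private SNV were 4 of 43 (9.30%) in AUL against a background of 4.86%, 1 of 43 in AML against 0.342% and 1 of 43 in T-MPAL against 0.823%. They were 0 of 43 in M-MPAL against 1.65%, in T-ALL against 1.29%, in the control against 0.319% and in B-ALL against 0.305%.

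**Figure D2:**
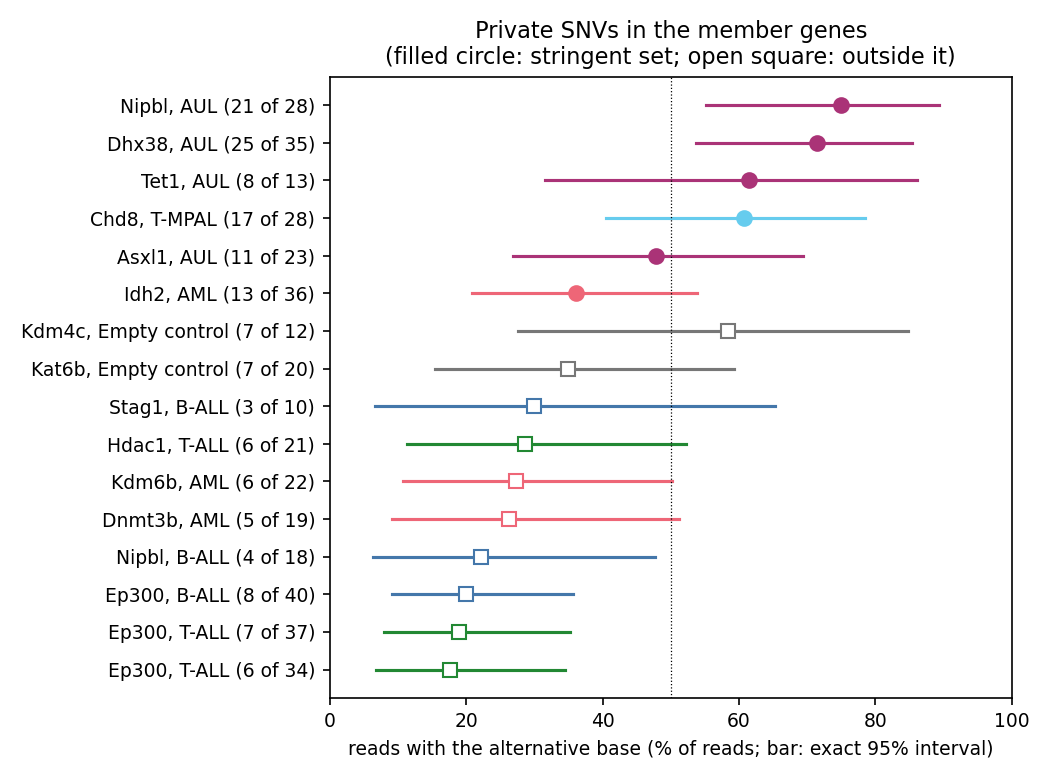
Share of reads with the alternative base for each of the 16 private SNVs, with its gene, library and read counts; bars are exact 95% intervals, filled circles the stringent set and open squares the others. The AUL changes in Nipbl (75%) and Dhx38 (71.4%) have intervals wholly above the dotted line at 50%. The 3 Ep300 changes of B-ALL and T-ALL and the B-ALL change in Nipbl have intervals wholly below it.

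Among the 8 DNA methylation and hydroxymethylation genes, 7 distinct SNVs and 83 distinct INDELs were called, of which 3 and 45 were private. AUL had an intronic G>T change in Tet1, which oxidises methylated cytosine, at position 62858930 of chromosome 10, on 8 of 13 reads (61.5%, 31.6 to 86.1%), and dbSNP lists this variant. AML had an intronic C>T change in Idh2, the mitochondrial isocitrate dehydrogenase that makes the 2-oxoglutarate used by TET enzymes, at position 80104226 of chromosome 7, on 13 of 36 reads (36.1%, 20.8 to 53.8%). AML also had a weaker intronic SNV in Dnmt3b, a de novo DNA methyltransferase, on 5 of 19 reads, all 5 on the reverse strand. Tet2 had 11 private INDELs and no SNV, Dnmt3a 10, Tet1 8, Tet3 6, Dnmt1, the maintenance methyltransferase, 5, and Idh1 1. The best supported of these was a 2-base insertion in an intron of Dnmt3a in T-MPAL on 11 of 14 reads (78.6%, 49.2 to 95.3%, quality 156), at the left end of the TG repeat at chr12:3819059-3819104. At the same position a 2-base deletion was called in T-ALL and in AUL, on 8 of 16 reads each, and in AML on 3 of 12. The insertion is shown because it is the best supported private change in a DNA methyltransferase. The first 30 bases of its allele are given on the plus strand, with the inserted bases in capitals.
Dnmt3a T-MPAL: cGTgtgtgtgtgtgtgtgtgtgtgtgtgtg
T-ALL carried a 2-base insertion in an intron of Tet3 on 6 of 23 reads (26.1%, 10.2 to 48.4%, quality 122). Its position had 3 alleles over 3 libraries. Dnmt3a, a frequent target in human myeloid leukaemia, had no call in an exon, splice site or UTR in any library.

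In the 3′ UTRs the 7 INDELs all lay in simple repeats, with qualities of 25.03 to 75. Tet genes held 4 of the 7. T-ALL had a 4-base deletion in Tet3 on 3 of 27 reads, AUL a 2-base deletion in Tet2 on 4 of 17 reads and T-MPAL a 2-base deletion in Tet1 on 5 of 30 reads, while a second Tet1 deletion was shared by AML and T-MPAL on 5 of 23 reads each. AML had a 2-base deletion in Kdm6b, a histone demethylase, on 4 of 20 reads, the control 1 in Jarid2, a Polycomb accessory protein, on 5 of 27 reads, and AML and B-ALL shared 1 in Kat6a on 6 of 23 and 3 of 13 reads. Their shares ran from 11.1% to 26.1%. Members with a private 3′ UTR call were 5 of 43 (11.6%), against 4.02% of all genes, a background that includes genes of shorter span.

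The 8 Polycomb and deubiquitinase genes held 8 distinct SNVs and 79 distinct INDELs. AUL had an intronic C>T change in Asxl1, a partner of the deubiquitinase BAP1, at position 153350949 of chromosome 2, on 11 of 23 reads (47.8%, 26.8 to 69.4%), and this was the only private SNV of the group. Asxl3, a paralogue with a span of 186 kb, had 30 distinct INDELs, 14 of them private, of which B-ALL and AML had 4 each, M-MPAL 3, T-ALL 2, AUL 1 and the remaining libraries 0. The B-ALL insertion of 7 bases in Asxl3 at position 22347655 of chromosome 18 stood on 13 of 14 reads (92.9%, 66.1 to 99.8%), and another insertion, at position 22347649, was called in B-ALL itself and in 5 other libraries on every read. Jarid2 had 9 private INDELs, Suz12, a core subunit of PRC2, 3, Asxl2 3, Usp7 2, and Asxl1 and Eed, another PRC2 core subunit, 1 each. Bap1 itself, with a span of 8.58 kb, had no call.

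The 7 histone acetylation and deacetylation genes held 10 distinct SNVs and 80 distinct INDELs, of which 5 and 43 were private. Crebbp, an acetyltransferase of histones and transcription factors, had no SNV and 7 private INDELs, of which AML had 3, T-ALL 2, AUL 1 and M-MPAL 1. Its T-ALL insertion of 2 bases stood on 8 of 13 reads (61.5%, 31.6 to 86.1%) and its AML deletion of 2 bases on 6 of 20 reads (30.0%, 11.9 to 54.3%). At the position of the T-ALL insertion, deletions were called in B-ALL on 2 of 2 reads and in T-MPAL on 4 of 5. A 4-base insertion in Crebbp was called in both MPAL fractions and in no other library, on 9 of 18 reads in M-MPAL (50%, 26.0 to 74.0%) and 11 of 21 in T-MPAL (52.4%, 29.8 to 74.3%). Of 3 INDELs in members that the MPAL fractions alone shared, only this one met the stringent criteria in both. Such sharing was not particular to these fractions. AUL and the control alone also shared 3, with 1 stringent in both, and AML and T-MPAL alone shared 7, with 0 stringent in both.

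The first 30 bases of these 3 Crebbp sites are given on the plus strand to show what kind of change they are. Capitals mark the inserted bases in the T-ALL and MPAL alleles, and the deleted bases in the reference at the AML site. All lie in introns and in tandem repeats of CA or TG, at chr16:4099614-4099666, chr16:4143663-4143700 and chr16:4174193-4174231.
Crebbp T-ALL: gGTgtgtgtgtgtgtgtgtgtgtgtgtgtg
Crebbp AML: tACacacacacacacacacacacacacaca
Crebbp M-MPAL and T-MPAL: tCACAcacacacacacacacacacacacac
All 3 changes are whole units of the dinucleotide repeat they sit in.

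Ep300, the paralogue of Crebbp, showed intronic SNVs of low share close together. T-ALL had private changes at 81590981 (7 of 37 reads) and 81590985 (6 of 34 reads) of chromosome 15, all on the forward strand and both listed in dbSNP, and B-ALL had 1 at 81591121 (8 of 40 reads). Between them, at 81591097, an A>G change was called in 5 libraries, on 13 of 42 reads in M-MPAL, 13 of 46 in AML, 11 of 45 in B-ALL, 12 of 56 in AUL and 10 of 56 in T-MPAL. These shares ran from 17.9% to 30.95%, and the depths of 34 to 56 reads at the 4 positions exceeded the median depth of the members' calls, 16 to 19 reads. The part of this depth in the calls was not tested.

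Kat6b and Kat6a are MYST family acetyltransferases. Kat6b, with a span of 173 kb, had the most distinct INDELs of any member, 32, with 19 private ones, and its private calls of both kinds together were 6 in the control, 4 in T-MPAL, 3 in B-ALL and in AML, 2 in AUL and 1 in T-ALL and in M-MPAL. The highest number was therefore that of the library without leukaemia. Its 1 private SNV was the control's, on 7 of 20 reads in a simple repeat. Kat6a carried a 2-base deletion in AUL on 10 of 26 reads (38.5%, 20.2 to 59.4%, quality 166). Hdac1, a histone deacetylase, had a private G>A change in T-ALL in a simple repeat, outside the stringent set, on 6 of 21 reads, and all 15 reference reads were on the forward strand. Ncor1, a corepressor that binds class I deacetylases, had 5 private INDELs and Hdac2 no call.

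The 5 histone demethylation and trithorax genes held 3 distinct SNVs and 25 distinct INDELs. Kdm4c, a histone demethylase, had 12 private INDELs, and its calls of both kinds were 5 in the control, 3 in B-ALL, 2 in T-ALL and in M-MPAL, 1 in AML and 0 in AUL and T-MPAL. In the control an SNV on 7 of 12 reads lay 10 bases from a 2-base deletion on 7 of 13 reads. Kdm6b, which removes methyl groups from a repressive histone mark, had an AML SNV on 6 of 22 reads, all on the reverse strand, beside its 3′ UTR deletion in the same library. Kdm5a had 1 private INDEL, in AML, and Kdm1a none. Men1, the scaffold that joins KMT2A to chromatin, had no variant call, but lay in a copy number call described further on.

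The chromatin remodellers Chd4, the ATPase of the NuRD complex, and Chd8 held 14 distinct INDELs, 5 of them private. Chd4 had 1 private INDEL in AML, in AUL and in the control, and the control's, a 2-base deletion on 6 of 14 reads (42.9%, 17.7 to 71.1%), was the only stringent one. The AML INDEL, a 2-base insertion, began at the same position as the control's. Chd8 had several alleles at 1 intronic position, 52203179: a 2-base insertion was called in AUL on 13 of 13 reads and in the control on 15 of 19, and a 4-base insertion in B-ALL on 8 of 17 reads, in AML on 18 of 30, in AUL on 13 of 13 and in the control on 15 of 19. AUL and the control have the same read counts for both alleles, since the tables give 1 number of alternative reads per site, and the reads of each allele are not on record. T-MPAL had another allele there, a private 2-base deletion on 5 of 20 reads.

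The 5 cohesin and insulator genes held 9 distinct SNVs and 64 distinct INDELs. In AUL, Nipbl, which loads cohesin onto DNA, had an intronic change at position 8388715 of chromosome 15, inside a LINE repeat, on 21 of 28 reads (75%, 55.1 to 89.3%). B-ALL had another Nipbl SNV on 4 of 18 reads. Stag1, a cohesin subunit and with 361 kb the longest member, had 16 private INDELs and 1 private SNV, of which B-ALL had 4, M-MPAL and the control 3 each, T-ALL, AML and AUL 2 each and T-MPAL 1. Its AUL insertion of 4 bases, 1 unit of the repeat at chr9:100677024-100677067, stood on 7 of 12 reads (58.3%, 27.7 to 84.8%, quality 194).
Stag1 AUL: tTTTAtttatttatttatttatttatttat
These are the first 30 bases of the best supported private INDEL in a cohesin gene, with the inserted bases in capitals, and no other library had a call within 10 bases. Rad21, the subunit that closes the cohesin ring, had 4 private INDELs, 3 of them in B-ALL, and an A>C change in a simple repeat at 51982265 that T-ALL and AUL shared, on 10 of 11 and 7 of 24 reads. Smc3, an ATPase of the ring, had the highest density of distinct INDELs among the members, 28.6 per 100 kb, with 7 private ones, and Ctcf had 1.

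Splicing and ribonucleoprotein genes held the fewest calls, 1 SNV and 8 distinct INDELs over 8 members that span 139 kb together. Of these, Srsf2 and U2af1, which recognise exon enhancers and the 3′ splice site, Prpf8, at the core of the spliceosome, the helicase gene Ddx41 and the nucleolar chaperone gene Npm1, had no call in any library. With Hdac2, Bap1 and Men1 they are the 8 members without a call, and all 8 are short, with spans of 3.78 to 27.6 kb. Of the members under 28 kb, 7 had a call. Sf3b1, a subunit that holds the branch point, had 4 private INDELs, Sf3a1 none, and Dhx38 the AUL missense change as its only private call. An intronic 2-base deletion in Dhx38 was shared by B-ALL (10 of 29 reads) and the control (6 of 32). No member of the group had a stringent private INDEL.

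Private INDELs numbered 177, far more than the SNVs. Over the 43 members their number and the gene span had a Spearman correlation of 0.854 and a Pearson correlation of 0.820, as a description. AML had 33, the control 31, B-ALL 27, T-MPAL 23, T-ALL 22, M-MPAL 21 and AUL 20. Per megabase AML had 10.8 (7.46 to 15.2) against 10.9 over all genes, and the control 10.2 (6.92 to 14.4) against 10.4. B-ALL had 8.86 (5.84 to 12.9) against 9.70, T-MPAL 7.55 (4.79 to 11.3) against 8.51, M-MPAL 6.89 (4.27 to 10.5) against 8.54 and AUL 6.57 (4.01 to 10.1) against 9.51. T-ALL, with 7.22 (4.53 to 10.9) against 11.9, was the only library whose value over all genes lay outside the members' interval. The control ranked next to AML, and all 7 intervals overlap. As genes, members with a private INDEL were 23 of 43 in AML against a background of 23.3%, 17 in the control against 23.5%, 16 in T-ALL against 24.6% and 14 in AUL against 21.8%. They were 13 each in B-ALL against 22%, T-MPAL against 20.7% and M-MPAL against 20.6%. The share of members was above the background in all 7 libraries, and the density per megabase below that of all genes in all 7.

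**Figure D3:**
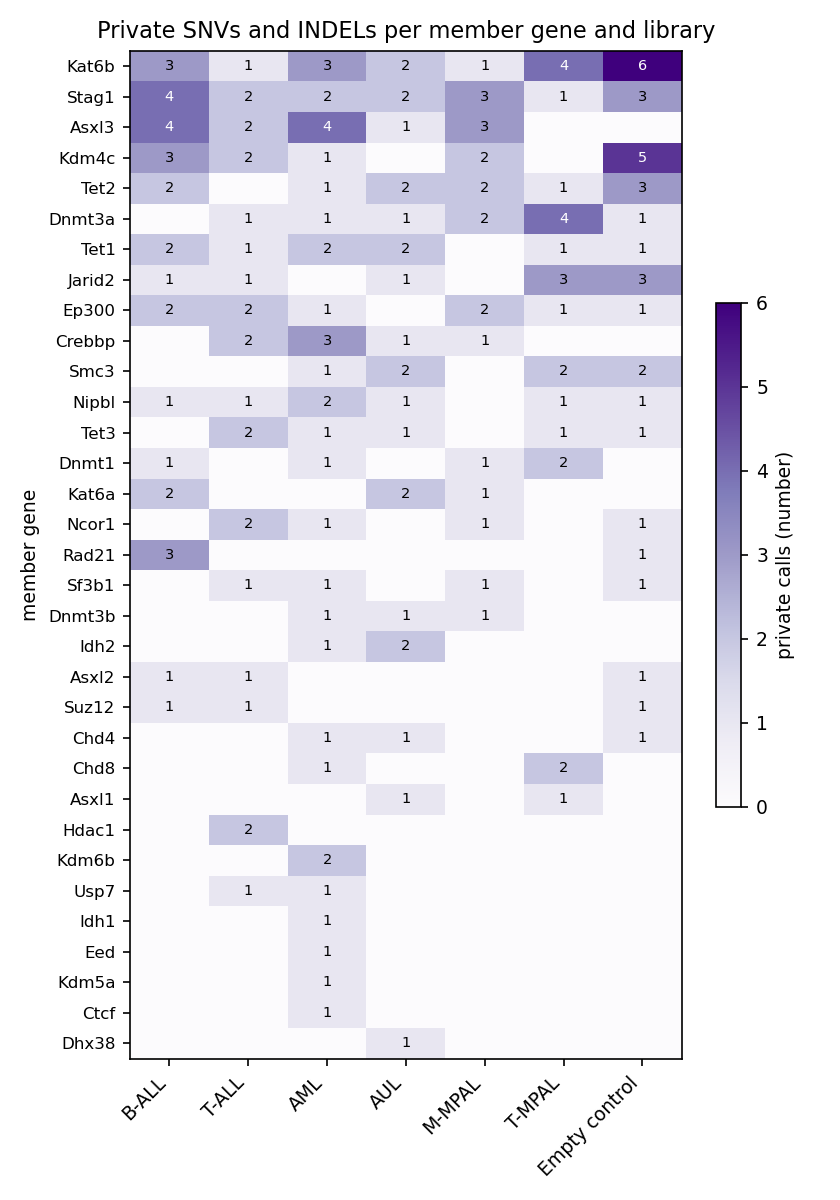
Number of private SNVs and INDELs (10 or more reads, uncalled elsewhere) for the 33 members that had one, by library, with members ordered by their total. Long genes such as Kat6b and Stag1 stand at the top with calls in all 7 libraries, and the control's 6 calls in Kat6b are the highest number in the plot.

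The members' INDELs lay mostly in repeats, as genic INDELs did in general. Of the 353 distinct INDELs, 343 (97.2%) lay in annotated repeats, as did 97.2% of all distinct genic INDELs, and 307 were in simple repeats. A change of 2 bases made up 76.8% against 73.4%, and 78.5% against 76.2% were shorter than the reference. Of the 177 private INDELs, 78 (44.1%) had another call within 10 bases in another library, against 47.8% over all genes, and 10 had a quality of at least 100. The median share of alternative reads in private INDELs was 23.5% in M-MPAL against 28.6% over all genes, 24.4% against 28.6% in AUL, 25% against 28% in T-MPAL, 25% against 27.8% in B-ALL, 26.7% against 28% in the control and 27.6% against 28.6% in AML. It was higher in T-ALL alone, 30.8% against 28.6%. The median quality was 31.7 against 39.0 in B-ALL. These differences were not tested. The 353 INDELs began at 275 positions, of which 70 had more than 1 allele, up to 4 alleles. Stringent private INDELs numbered 3 in T-ALL (members with one: 3 of 43, background 3.82%), 2 in AUL (2 of 43, 2.94%), 2 in the control (2 of 43, 2.63%), 1 in B-ALL (1 of 43, 2.05%), 1 in AML (1 of 43, 2.55%), 1 in T-MPAL (1 of 43, 2.34%) and 0 in M-MPAL (0 of 43, 3.1%). Over the 43 members, distinct INDELs and gene span had a Spearman correlation of 0.908 and a Pearson correlation of 0.841, given as a description, since all members share the same libraries. No member SNV lay in a segmental duplication, in contrast to 34.6% of all distinct genic SNVs.

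**Figure D4:**
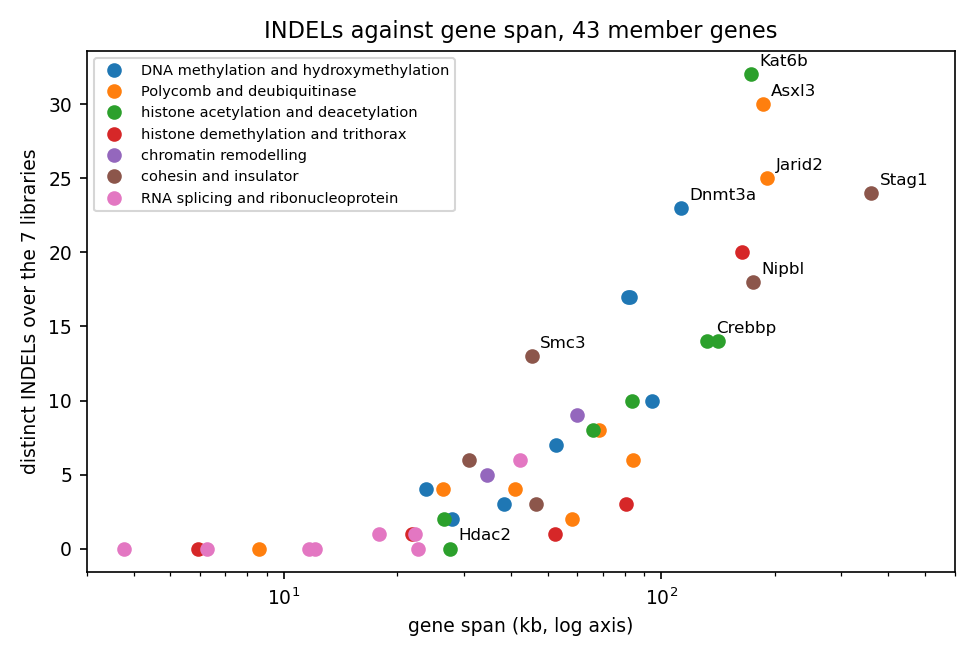
Distinct INDELs over the 7 libraries against gene span (kb, log axis) for the 43 members, coloured by group. Members under 28 kb have few or no INDELs, Kat6b (173 kb) has 32, and Stag1, the longest at 361 kb, has 24.

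Copy number calls covered 7 members. They placed Nipbl, Rad21 and Ep300 (chromosome 15) at 3 copies in both MPAL fractions, Crebbp and Usp7 (chromosome 16) at 3 copies in B-ALL and in AML, and Smc3 and Men1 (chromosome 19) at 1 copy in B-ALL. In each case the whole gene span was covered, and no member lay in a call in T-ALL or in the control. Members inside a gain were 3 of 43 (6.98%) in M-MPAL against 3.86% of all genes, 3 in T-MPAL against 4.25%, 2 in B-ALL (4.65%) against 3.25%, 2 in AML against 3.33%, 0 in T-ALL against 0.231% and 0 in the control against 0.342%. Members inside a loss were 2 in B-ALL (4.65%) against 3.25%, and 0 in M-MPAL against 4.17%, in T-ALL against 0.0462%, in T-MPAL and in the control against 0.0416% and in AML against 0.00462%. No member lies on chromosome X, which holds 892 of the 902 genes inside a loss in M-MPAL, so that the 4.17% is no measure for the members, and on autosomes alone the M-MPAL background was 0.0484%. The remaining shares rest on 0 to 3 members each, and members on 1 chromosome share its call. Crebbp in B-ALL was covered by 3 calls together, and each other member by 1 call, the longest of 7879 kb (Smc3, B-ALL). The AUL table ends within chromosome 2 after 17 whole lines, so that AUL has a record only over chromosome 1, where Sf3b1 and Idh1 lay in no call.

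Read depth at shared SNVs gave a second measure from the same reads, and it reached AUL. It was the median depth over homozygous SNVs called in all 7 libraries, outside segmental duplications and under 200 reads (3593 autosomal sites), divided by the library's autosomal median, and it was added after the copy number calls were seen. On chromosome 15 (147 sites) T-MPAL had a ratio of 1.5, AUL of 1.42 and M-MPAL of 1.39, and 105 of 147 sites of AUL lay above its median. B-ALL had 1.05, T-ALL 1.05, AML 0.947 and the control 1.06 there. Over the chromosome as a whole the ratio of AUL thus lay with those of the MPAL fractions. At the 2 Nipbl SNVs, 8367345 and 8378022, found on every read of all 7 libraries, AUL had 29 and 25 reads, against its autosomal median of 19. T-MPAL had 48 and 39, M-MPAL 23 and 38, B-ALL 31 and 29, T-ALL 26 and 29, AML 17 and 20, and the control 25 and 15. Reads at these 2 sites vary widely between libraries without a gain there, so they cannot show whether AUL is raised over Nipbl. On chromosome 16 (192 sites) the ratio was 1.26 in B-ALL, 1.37 in AML and 0.944 to 1.00 in the others, and on chromosome 19 (98 sites) 0.579 in B-ALL and 0.941 to 1.00 in the others. AUL also had 1.21 on chromosome 12 (152 sites), which carries Dnmt3a and Asxl2. The highest of the remaining 119 pairs of a library and a chromosome was 1.22, on chromosome 17 of T-MPAL. There a gain to 3 copies was called over Srsf3, which is not a member. The next highest was 1.11, on chromosome 14 of AML. What the chromosome 12 value reflects was not tested. Outside annotated repeats (1447 sites) the chromosome 15 ratios were 1.40 in T-MPAL, 1.31 in AUL and 1.24 in M-MPAL, and the remaining pairs ran from 0.810 to 1.24. Outside repeats the M-MPAL value, and the 1.24 of AUL on chromosome 12, equalled the highest of the remaining pairs at 2 decimals. That highest pair was chromosome 11 of the control.

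**Figure D5:**
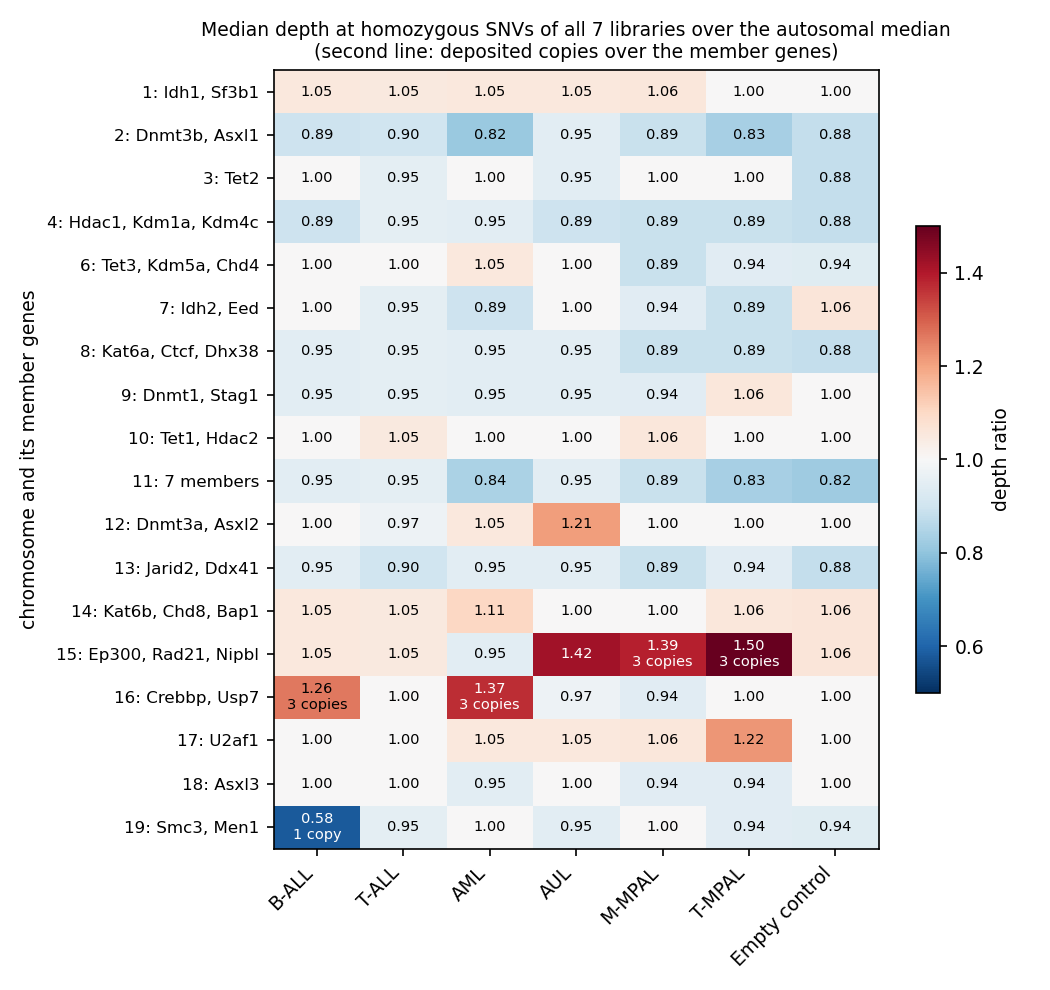
Median depth at homozygous SNVs of all 7 libraries divided by the library's autosomal median, for each of the 18 chromosomes that carry members (rows) and each library (columns); a second line gives the deposited copies over the members. Ratios of 1.5 (T-MPAL), 1.42 (AUL) and 1.39 (M-MPAL) on chromosome 15 stand out, with no deposited copy number for AUL on that chromosome.

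On chromosome 15 the read shares of private SNVs differed from those of other autosomes in the 3 libraries with raised depth. The median share was higher there in AUL and lower in both MPAL fractions. Among stringent private SNVs of AUL on that chromosome, 35 of 206 (17.0%, 12.1 to 22.8%) had a share between 42% and 58%, against 54.9% of 3563 on the autosomes other than 12, 15, 16 and 19, and the median share was 58.0% against 47.2%. In M-MPAL 6 of 53 (11.3%, 4.27 to 23.03%) lay in that range against 46.0%, with a median share of 34.1% against 44.4%. In T-MPAL it was 3 of 26 (11.5%, 2.45 to 30.2%) against 46.8%, with a median share of 35.8% against 47.4%. In T-ALL, with no copy number call over a member, 15 of 30 (50%, 31.3 to 68.7%) on chromosome 15 lay in that range, against 42.8%. The AUL change in Nipbl, on 75% of reads, is 1 of these 206. On chromosome 12 of AUL, 92 of 217 (42.4%, 35.7 to 49.3%) lay in that range, also below the 54.9% of those autosomes, with a median share of 45.5%. Depth and shares come from the same reads and from 1 library each, and the number of copies in AUL was not called here.

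Some variants were called in all 7 libraries, control included. Whether each is a true difference from the reference was not tested. Sf3b1 carried a 1-base insertion at position 54997297 of chromosome 1 on every read, from 25 reads (T-MPAL and the control) to 38 (AML). Idh2 carried a 6-base deletion on every read (22 reads in AML to 31 in the control), shown with the deleted bases in capitals in the reference (chr7:80098332-80098354), where a 6-base unit stands in tandem.
Idh2 reference: cCCAGGGccagggccagggccag
Kat6b had an intronic C>A change at 21541646 of chromosome 14 on every read of all 7 libraries, and Nipbl 2 such changes, at 8367345 and 8378022 of chromosome 15. Jarid2 had SNVs at 44869614 and 44869897 of chromosome 13 in all 7 libraries inside an rRNA repeat, at depths of 330 to 711 reads and shares of 90.3% to 96.1%. These depths far exceed the 16 to 19 reads at the members' calls in general. The alternative reads lay mostly on 1 strand, in AUL 325 forward and 24 reverse at 44869614, and 0 forward and 423 reverse at 44869897. Kat6a had a 2-base deletion in all 7, whose share ran from 16.7% (3 of 18 reads, T-ALL) to 66.7% (12 of 18, M-MPAL). Smc3 had a pair of SNVs at 53618895 and 53618897 of chromosome 19 in 6 libraries on every read, with 8 reads in B-ALL, which has 1 copy, and 8 to 17 in the others, and no call in the control.

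Promoter windows of 300 bases around annotated starts (RefSeq, GRCm38.p6) existed for 34 members, and calls fell into a window of 1 member, Usp7. The share of all genes with a call in such a window was not determined, so this count has no background. The Usp7 window, at 8738293 to 8738592, lies inside the gene span used elsewhere here, 8688722 to 8757067. An A>C change at 8738359 of chromosome 16 was called on every read in all 7 libraries, on 17 reads in T-ALL, 16 in M-MPAL, 14 in the control, 10 in T-MPAL, 9 in B-ALL, 7 in AML and 5 in AUL. The deposited tables label it upstream and give no gene name, so it is not counted among the members' calls. The gene lies on the minus strand, and the stretch around the site reads as follows, with the reference base in capitals.
Usp7 promoter: gccgccgccgcctcTgctagcagccgccc
This change was present in leukaemia and control libraries alike. The same window held 2 further calls, each on every read where it was made. A 1-base deletion at 8738404 was called on 20 reads in M-MPAL, 13 in T-ALL, 11 in B-ALL and in the control and 6 in T-MPAL, but not in AML or AUL. A 1-base insertion at 8738535 was called on 8 reads in T-ALL, 6 in T-MPAL, 5 in the control and 4 in B-ALL. The depth in the libraries without these calls is not on record.

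Of 75 other chromatin, cohesin and splicing genes, 7 (9.33%) had a private protein-altering call in some library, against 0.962% of all genes and 1 of 43 members. This list was chosen with earlier results of these data known, and gene span was not taken into account. The share is therefore no measure of an excess. The calls are spread over B-ALL, T-ALL, AML, M-MPAL and T-MPAL, with none in AUL or the control. Smarca4, the ATPase of SWI/SNF, had E535K in M-MPAL on 25 of 53 reads (47.2%, 33.3 to 61.4%) and D1225H in AML on 13 of 28 reads (46.4%, 27.5 to 66.1%). Setd2, a histone methyltransferase, had the stop-gaining Q1643X in M-MPAL on 10 of 33 reads (30.3%, 15.6 to 48.7%). The remaining ones were weaker, with 3 to 5 alternative reads: Kmt2d in both MPAL fractions (different in-frame deletions), U2af2 in T-ALL (H82P), Ezh2 in AML, Chd3 in T-MPAL (F1973C) and Kmt2c in B-ALL. Inside gains lay 6 of the 75 in M-MPAL (8%, all genes 3.86%) and 8 in T-MPAL (10.7%, all genes 4.25%). On chromosome 15 lay 6 of them in both, among them Kmt2d, Arid2 and Hdac7. Inside losses lay 3 in B-ALL (4%, all genes 3.25%), which were Mta2, Sf1 and Sf3b2 on chromosome 19, and 9 in M-MPAL (12%, all genes 4.17%). All 9 were on chromosome X at 1 copy, among them Kdm6a, Stag2, Smc1a, Bcor and Phf6. Chromosome X holds 892 of the 902 genes inside a loss in M-MPAL. The sex of the mice is not among the sample data used here, and whether 1 copy of chromosome X was acquired was not tested.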

How the data were processed

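Each of the 7 libraries has SNV, INDEL and copy number tables (350 bp fragments, paired 150 bp reads, 30x planned, per the labels). The submitters' processing notes name BWA and mm10. Calls by samtools, copy number by FREEC and annotation by ANNOVAR (dbSNP build 142) stand in the file names and headers, with versions, filters and settings not given in the sources used here. Per call, the authors deposited a Phred-scaled quality score (lowest 20), read depth and alternative reads, and whole copies per region in steps of 1000 bases, per the file headers. The 6 integration site samples are not analysed here.

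Calls were matched to members by gene name, and spans came from RefSeq GRCm38.p6. Private calls, the stringent set and all intervals (exact Poisson, Clopper-Pearson) were computed with Python 3.11.15, pandas 2.3.3, numpy 2.4.6 and scipy 1.17.1, and the figures with matplotlib 3.10.9. The scripts were tested on simulated data. With 1 library per group no test between groups was made. A gene counted as inside a copy number call when 1 base overlapped. Named are members with a private exonic, splicing or UTR call, inside a copy number call, among the 8 with most stringent private intronic calls, or without a call, and others for their counts, the latter chosen after their values were seen. Of the 75 other genes, named are those with most alternative reads or examples inside copy number calls. Members, lists and criteria were chosen with earlier results of these data known. Alternatives changed depth, quality, repeats, dbSNP, nearby calls, the libraries asked to lack a call, and the overlap and length of copy number calls. Of the stringent private INDELs, 1 is not reported here.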

Additional observations from a re-analysis of the deposited data

How the results depend on the processing

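The exonic calls (Dhx38 in AUL, Chd8 in T-MPAL) and the members inside copy number calls were the same in number under every alternative run on them, while counts of private calls moved. With 5 reads, private SNVs were 5 in B-ALL, 8 in T-ALL and 5 in AML. With 20 reads they were 1 in B-ALL and 1 in the control, and private INDELs were 12 in M-MPAL, 15 in AML, 11 in the control, 11 in T-MPAL, 10 in T-ALL, 7 in AUL and 6 in B-ALL. A quality of at least 100, like the stringent set, left 0 SNVs in B-ALL, T-ALL and the control and 1 in AML, and INDELs numbered 3 in T-ALL, 2 in AUL, 2 in the control, 1 in AML, 1 in B-ALL, 1 in T-MPAL and 0 in M-MPAL. Outside repeats and segmental duplications the control had 0 SNVs, and INDELs were 2 in B-ALL, 0 in T-ALL and AML, and 1 in AUL, M-MPAL, T-MPAL and the control. Without dbSNP calls, SNVs were 0 in T-ALL and 1 in the control. With no call within 10 bases elsewhere, INDELs were 17 in AML, 15 in the control, 14 in B-ALL, 14 in T-MPAL, 12 in T-ALL and 10 in AUL. Against libraries of the same protocol alone, where fewer libraries must lack a call, private INDELs rose in all 7 libraries. They were 43 in M-MPAL, 37 in T-MPAL, 44 in the control, 44 in AML, 40 in B-ALL, 30 in T-ALL and 27 in AUL. The 4 private SNVs of AUL stayed within the counting interval under all alternatives. The depth ratio outside repeats was chosen after seeing the data. No paired analysis was possible because each group has 1 library, and no library could be left out of a group. In each library the minimum of 20 reads left more INDELs than the quality minimum or the repeat filter.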
